A study of Mus musculus with 4 samples.

Results

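The genes described here are 10 genes of the cell's defence against peroxides, superoxide, free metal and haem, namely Mt1, Mt2, Hmox1, Gclc, Gclm, Gsr, Gpx1, Prdx6, Sod1 and Cat. They were measured in RNA of whole newborn mouse lenses on Affymetrix expression arrays. They were followed through every probe set, a group of short probes read out as 1 intensity, whose platform annotation names 1 of these genes and no other. That rule found 18 of the 45101 probe sets on each array, for 9 of the 10 genes, among 18193 genes named on the array. No probe set carried the name Prdx6 in the annotation used here, so Prdx6 was not analysed here.

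The study compared lenses labelled HSF4 knockout with lenses labelled wildtype, all from the 129S3 background, labelled male and taken at postnatal day 0.5. The gene product HSF4 is a heat shock factor that regulates genes of the lens, and the comparison addresses how lens RNA differs when it is missing. There were 2 arrays per group, numbered 1 and 2, and no label says whether the samples came from separate animals or pools. The p-values therefore rest on array-to-array spread alone, and this could be technical.

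Glutathione, a small thiol, is the main soluble antioxidant of the lens, where it keeps crystallins reduced. It is made by glutamate-cysteine ligase (the Gclc and Gclm subunits) followed by glutathione synthetase, is consumed by glutathione peroxidases such as Gpx1, and is regenerated by glutathione reductase (Gsr). Sod1 turns superoxide into hydrogen peroxide, which catalase (Cat), Gpx1 and Prdx6 remove. Metallothioneins (Mt1 and Mt2) bind zinc and copper through many cysteines, and haem oxygenase 1 (Hmox1) degrades haem. Metal-responsive Mtf1 drives the metallothioneins, Nrf2 (Nfe2l2) drives many glutathione genes from antioxidant response elements, and heat shock factors bind heat shock elements.

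Regulatory sequence is shown for the metallothionein gene with groups that did not overlap, for the gene with the largest difference, and for the gene with the lowest. RefSeq promoter windows were on hand for 6 of the 10 genes (Mt1, Mt2, Gclm, Gpx1, Sod1 and Cat, build GRCm38.p6). Each run below is the 250 bases before the gene's start, 5′ to 3′ on the gene's strand, and capitals mark every motif match. Mt2 is at chr8:94172368-94172617 (+), Sod1 at chr16:90220512-90220761 (+) and Cat at chr2:103485154-103485403 (-).
Mt2: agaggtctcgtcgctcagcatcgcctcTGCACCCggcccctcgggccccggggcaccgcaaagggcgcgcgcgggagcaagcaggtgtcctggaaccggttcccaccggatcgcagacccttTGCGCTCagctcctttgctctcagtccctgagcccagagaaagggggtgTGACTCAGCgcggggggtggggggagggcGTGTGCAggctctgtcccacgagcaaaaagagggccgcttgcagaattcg
Sod1: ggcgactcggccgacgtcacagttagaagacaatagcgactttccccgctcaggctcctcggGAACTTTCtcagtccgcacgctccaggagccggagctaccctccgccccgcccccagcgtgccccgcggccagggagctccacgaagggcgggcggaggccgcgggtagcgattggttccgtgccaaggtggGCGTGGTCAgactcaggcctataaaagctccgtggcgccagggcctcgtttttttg
Cat: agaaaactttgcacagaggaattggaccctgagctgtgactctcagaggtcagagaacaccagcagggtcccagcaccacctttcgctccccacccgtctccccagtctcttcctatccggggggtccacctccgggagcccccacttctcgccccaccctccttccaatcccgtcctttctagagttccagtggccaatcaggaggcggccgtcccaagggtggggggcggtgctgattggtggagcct
The motifs, searched on both strands, were the metal response element core (TGCGCNC or TGCACNC), the antioxidant response element core (TGACNNNGC) and a heat shock element pair (GAANNTTC or TTCNNGAA). In the Mt2 window there were 3 metal response cores, starting 223, 128 and 50 bases before the gene's start, and 1 antioxidant core starting 79 bases before it. The Sod1 window held 1 antioxidant core, starting 56 bases before the start on the opposite strand, and 1 heat shock pair, starting 188 bases before it. The Cat and Gpx1 windows held none of the letters searched, and the Gclm window held 2 metal response cores and 1 antioxidant core, overlapping in part. Of 32851 windows of this length, 21.4% held a metal response core (1.26% held 3 or more), 10.2% an antioxidant core and 12.8% a heat shock pair. For Mt1, 206 of the 250 bases lie inside the RefSeq gene model, so its window is not printed. In that window 1 metal response core was found. For Gclm, 70 of the 250 bases lie inside its RefSeq gene model, so not all of its window lies upstream. A match is a string of letters and not a bound site.

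Facts of the whole series bear on every value below. The deposited median intensity ranged from 6.58 on knockout array 2 to 21.4 on wild-type array 1. The arrays were therefore quantile normalized, and levels are given as normalized intensities. The single Hsf4 probe set was brighter on both arrays labelled knockout than on the wild-type array of the same number (505 and 138 in wild type, 1212 and 413 in knockout, numbers 1 and 2). Its place relative to the deleted part was not given in the sources used here, so it does not check the labels, and directions refer to the arrays as labelled. Further measurements set arrays apart. Although all samples are labelled male, 1 probe set of Xist, the RNA of the inactive X chromosome, measured 605 and 260.5 on wild-type and knockout array 1, against 58.0 and 9.01 on arrays 2. The Y-linked Eif2s3y was measured on all 4 arrays, at 60.4 and 208 in wild type and 100.5 and 161 in knockout. Control probe sets for the middle of 18S ribosomal RNA were brightest on knockout array 2 at 3636, and the other arrays had 432 (wild type 2), 16.7 (knockout 1) and 14.3 (wild type 1). The 5′ control of the same RNA was bright on both arrays 2, at 6898 in wild type and 7309 in knockout, and measured 1.52 and 14.3 on arrays 1. Lens fibre markers summed to 65345 and 61553 in wild type and to 64000.4 and 60633 in knockout (numbers 1 and 2). Quantile normalization gives all arrays one distribution, which holds sums of very bright probe sets close together. All 12 fibre markers with a probe set passed the intensity filter. Their differences between knockout and wild type ran from -1.25 to 1.00 on the log2 scale, with 2 at an unadjusted p under 0.05 (limma).

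None of the tested probe sets of these genes passed the threshold of limma's test. Of 18, 16 reached the median intensity over the non-control probe sets and were tested, covering all 9 genes, while 1 each of Mt1 and Sod1 was dimmer. Of those 16, 0 passed an adjusted p of 0.05 (limma, Benjamini-Hochberg over all 22519 probe sets tested), and each had an adjusted p of 1. Over the whole array, 4 probe sets passed, or 0.0178%. At an unadjusted p under 0.05 there was 1 of 16, against 2.33% of all. With 2 arrays against 2, the smallest p an exact two-sided permutation test of a single value can give is 0.333. A positive difference means a higher level in knockout; differences are of log2(intensity + 16), which understates changes of dim probe sets, and SE is the standard error that limma gave.

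The 16 differences ran from -0.57 to 1.19, with 9 above 0 and 7 below, and their median was 0.10, beside -0.01 over all tested probe sets. Groups did not overlap for 6 of the 16 (3 higher and 3 lower in knockout), which is 37.5%, beside 27.0% of all tested probe sets (12.6% higher and 14.4% lower). Within both numbers, 6 were higher and 4 lower in knockout, which is 37.5% and 25%, beside 25.9% and 27.4% of all. The remaining 6 went one way within number 1 and the other way within number 2.

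**Figure D1:**
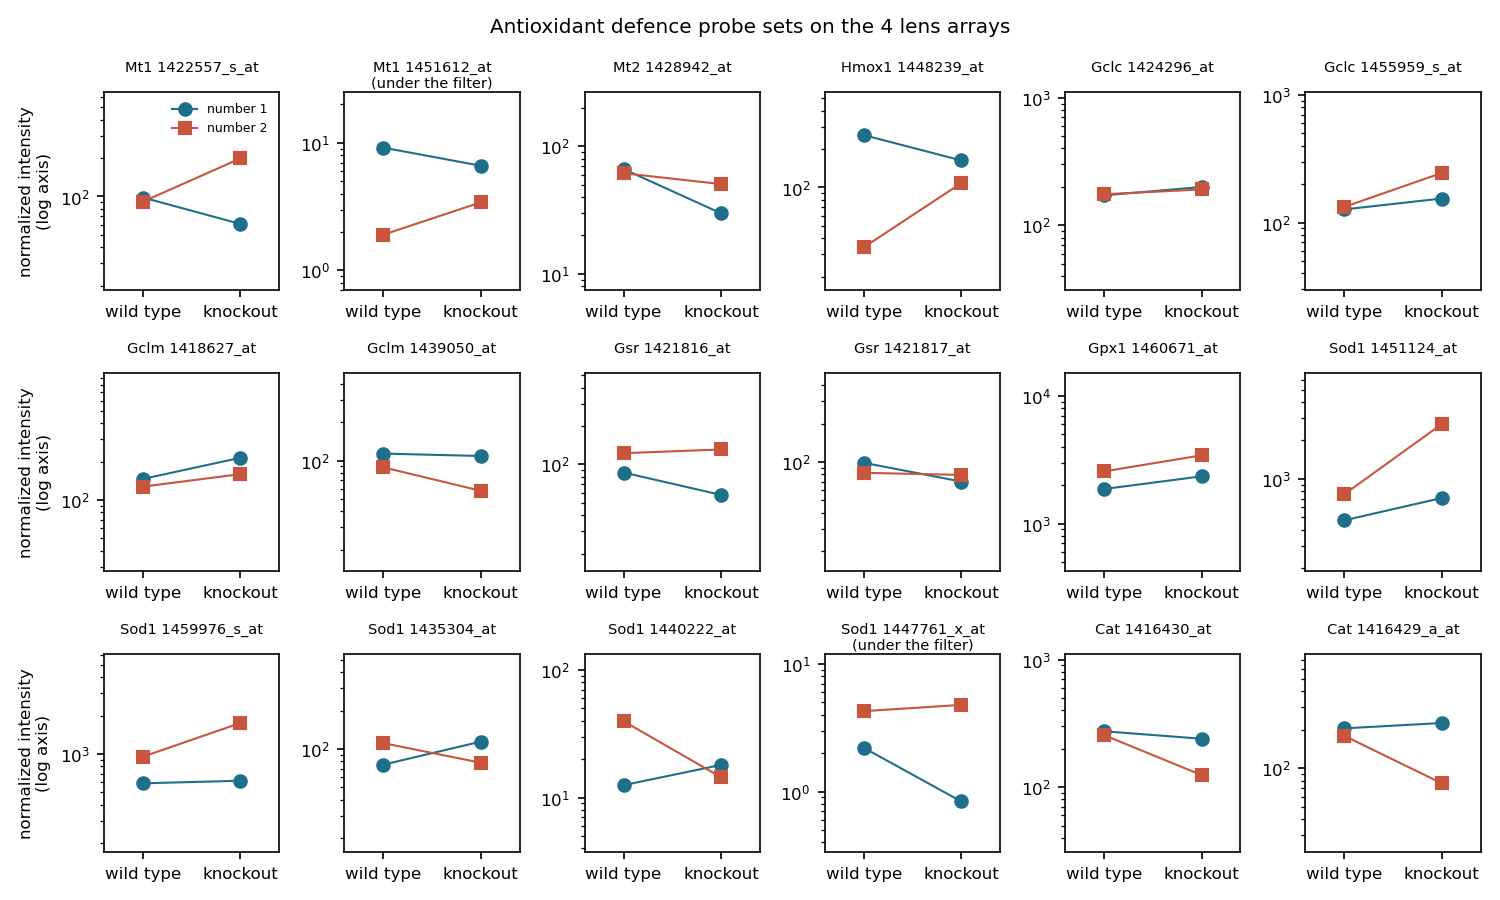
Normalized intensity (log axes, all spanning the same ratio from bottom to top) of the 18 member probe sets in wild-type and knockout lenses; lines join the 2 arrays of the same number, circles for number 1 and squares for number 2. For Mt1 and Hmox1 the lines cross or converge, whereas for Gclc both run upward and for Mt2 both run downward.

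The metallothioneins gave different patterns. On the arrays in the order wild type 1, wild type 2, knockout 1 and knockout 2, Mt1 (1422557_s_at) measured 98.1, 91.1, 60.9 and 198.8. The wild-type arrays lay close together, knockout array 1 below them and knockout array 2 above them, so the groups overlapped. The means were 94.6 ± 4.93 (SD, n = 2) and 129.8 ± 97.5 (SD, n = 2), and the difference was 0.22 (SE 0.45), made of -0.57 within number 1 and 1.00 within number 2. Mt2 (1428942_at) measured 66.2, 61.4, 29.8 and 50.5 on the same arrays. Both knockout arrays lay below both wild-type arrays, with means of 63.8 ± 3.39 and 40.2 ± 14.6 (SD, n = 2 each) and a difference of -0.53 (SE 0.32). It was -0.84 within number 1 and -0.22 within number 2, and -0.25 with knockout array 1 left out. The second Mt1 probe set (1451612_at) stayed between 1.90 and 9.17, under the filter, and was not tested. The suffix _s_at marks a probe set that can match more than 1 transcript, so Mt1 and a similar sequence could share its signal.

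The list of metallothioneins and of genes that handle zinc and copper, which includes Mt1 and Mt2, had differences on both sides of 0. Of its 28 genes, 25 were tested and 0 passed in either direction (limma), with 0 at an unadjusted p under 0.05. Within both numbers 4 were higher and 6 lower, and the median difference was -0.00. Mtf1, the factor that switches metallothionein genes on when zinc is high, measured 55.7, 53.2, 42.0 and 84.8 in the array order used for Mt1, with a difference of 0.12 (SE 0.35). That is again lower on knockout array 1 and higher on knockout array 2, but its other tested probe sets had -0.11 and 0.09. The zinc exporter Slc30a1 was also lowest on knockout array 1 and highest on knockout array 2. It measured 93.2, 97.8, 72.5 and 145.2 in that array order, a difference of 0.10 (SE 0.36). Its dimmer probe set was instead lowest on knockout array 2 and had -0.40. The copper importer Slc31a1 had the lowest p of the list and measured 220.4, 234.8, 117.3 and 188.6, a difference of -0.56 (SE 0.32) with groups that did not overlap. Its other probe set had -0.74. Mt3, the metallothionein of brain, measured 19.8, 3.07, 19.9 and 25.8, a difference of 0.57 (SE 0.39) that rested on the low value of wild-type array 2.

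Among 20111 tested probe sets with 1 symbol, likeness to a gene was measured as the Euclidean distance of log2 deviations over the 4 arrays. Nearest to Mt1 were Cdk2ap2, 2810410L24Rik and Gna13, at distances of 0.11, 0.12 and 0.12. Nearest to Mt2 were Brpf3, Dcbld1 and Tysnd1, at 0.06, 0.07 and 0.08. Mt1 and Mt2 lay 1.00 apart. With only 4 arrays many probe sets resemble any pattern, so these names describe the arrays alone.

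Haem oxygenase 1 varied more within the wild-type group than between groups. Hmox1 (1448239_at) measured 258 and 34.0 in wild type, with 163 and 108 in knockout. The knockout values thus lay between the wild-type ones. The means were 145.8 ± 158 and 135.5 ± 38.8 (SD, n = 2 each), while the log2 difference was 0.35 (SE 0.65), with opposite sign to the difference of the mean intensities. It was -0.61 within number 1 and 1.31 within number 2. Without wild-type array 2 the difference was -0.87 and without wild-type array 1 it was 1.52, so its direction depended on which wild-type array was kept.

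In the wider list of haem breakdown and iron storage, 11 of 12 genes were tested and 0 passed (limma), with 0 at an unadjusted p under 0.05. Within both numbers 6 were higher and 2 lower, and the median was 0.12. Hmox2, the constitutive haem oxygenase, measured 311 and 302 in wild type and 372 and 377 in knockout, groups that did not overlap, with a difference of 0.28 (SE 0.28). The transferrin receptor Tfrc, which imports iron, measured 243 and 254 in wild type and 181 and 137 in knockout, a difference of -0.61 (SE 0.30). A dimmer probe set of Tfrc had 0.26. Bach1, a repressor of Hmox1, measured 176 and 232 in wild type and 180.0 and 235 in knockout, a difference of 0.02 (SE 0.31). A dimmer probe set of Bach1 had 0.24, without overlap.

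The glutathione-making enzyme gave higher values in knockout from 3 of its 4 probe sets. Gclc, the catalytic subunit, measured 172 and 175 in wild type and 199.6 and 191 in knockout with 1424296_at, a difference of 0.16 (SE 0.29). With 1455959_s_at it measured 127 and 133 in wild type and 154 and 245 in knockout, a difference of 0.53 (SE 0.33). Neither Gclc probe set overlapped between groups. The 2 wild-type arrays agreed closely in both, and the second difference was 0.23 with knockout array 2 left out and 0.84 with knockout array 1 left out.

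Gclm, the modifier subunit that makes the ligase more efficient, measured 146 and 127 in wild type and 214 and 159 in knockout with 1418627_at, again without overlap and with a difference of 0.40 (SE 0.31), which was 0.20 with knockout array 1 left out. Its probe set 1439050_at went the other way, with 114 and 88.6 in wild type, 109 and 58.0 in knockout, overlapping groups and a difference of -0.28 (SE 0.35). Averaged over its probe sets, Gclm had 0.06 (SE 0.28) and Gclc 0.35 (SE 0.25). No direction is therefore given for Gclm.

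Glutathione reductase, which restores glutathione at the cost of NADPH, was lower on knockout array 1 than on wild-type array 1 by both probe sets, with differences near 0 within number 2. Gsr (1421816_at) measured 86.3 and 122 in wild type and 57.7 and 131 in knockout, a difference of -0.19 (SE 0.39) with overlapping groups. With 1421817_at it measured 98.7 and 82.3 in wild type and 70.4 and 79.3 in knockout, a difference of -0.23 (SE 0.30) with groups that did not overlap by a narrow margin. Within number 1 these were -0.47 and -0.41, and within number 2 they were 0.09 and -0.04.

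Over the list of glutathione synthesis, turnover and reduction, 19 of 22 genes were tested and 0 passed in either direction (limma), with 0 at an unadjusted p under 0.05. The members Gclc, Gclm and Gsr are among the 19. Within both numbers 9 were higher and 2 lower, that is 47.4% and 10.5%, beside 25.9% and 27.4% of all tested probe sets, and the median was 0.16. Gss, glutathione synthetase and the second enzyme of the route, measured 841 and 584 in wild type and 1302.5 and 754 in knockout, a difference of 0.49 (SE 0.32), with overlapping groups. Its other probe set, outside the count above, measured 590.3 and 519 in wild type and 920.4 and 803 in knockout, without overlap. The difference of that probe set was 0.62 (SE 0.26, unadjusted p = 0.0389 and adjusted p = 1 by limma). Ggct, which breaks down gamma-glutamyl peptides, measured 618 and 631 in wild type and 499 and 379 in knockout, a difference of -0.50 (SE 0.28). Each gene counts once, by its brightest probe set, whereas the shares of all count every tested probe set, so the comparison is not like for like.

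The peroxide-removing enzymes lay on both sides of 0. Gpx1, the cytosolic glutathione peroxidase, measured 1865 and 2564 in wild type and 2343 and 3425 in knockout. Each knockout array exceeded the wild-type array of its number, by 0.33 and 0.42, but knockout array 1 lay below wild-type array 2 and the groups overlapped. The means were 2214 ± 494 and 2884 ± 765 (SD, n = 2 each) and the difference was 0.37 (SE 0.25). It was 0.10 with knockout array 2 left out, 0.15 with wild-type array 1 left out, 0.60 with wild-type array 2 left out and 0.67 with knockout array 1 left out. The median of its list of peroxidases and transferases was -0.03, with 21 of 32 genes tested, 6 higher and 9 lower within both numbers, and 0 passing (limma; 0 at an unadjusted p under 0.05).

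In that list Gpx7, a peroxidase of the endoplasmic reticulum, had the lowest p and measured 57.6 and 71.5 in wild type and 47.9 and 33.8 in knockout, a difference of -0.51 (SE 0.31). Gpx4, which reduces lipid peroxides, had 0.24 and 0.08 with its probe sets. The transferase Gstm5, which couples glutathione to electrophiles, measured 1952 and 1998 in wild type and 1567 and 1670.1 in knockout, a difference of -0.29 (SE 0.21) without overlap.

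Catalase was dimmest on knockout array 2. Cat measured 274 and 256 in wild type and 239.6 and 124 in knockout with 1416430_at, so both knockout arrays lay below both wild-type arrays. The means were 264.8 ± 13.1 and 182.0 ± 81.5 (SD, n = 2 each) and the difference was -0.57 (SE 0.35), made of -0.18 within number 1 and -0.95 within number 2. With 1416429_a_at it measured 206 and 179 in wild type and 226 and 76.2 in knockout, a difference of -0.48 (SE 0.44) with overlapping groups and 0.13 and -1.08 within the numbers. Without knockout array 2 the differences were -0.13 and 0.22, so both rest on that array, the dimmest as deposited.

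**Figure D2:**
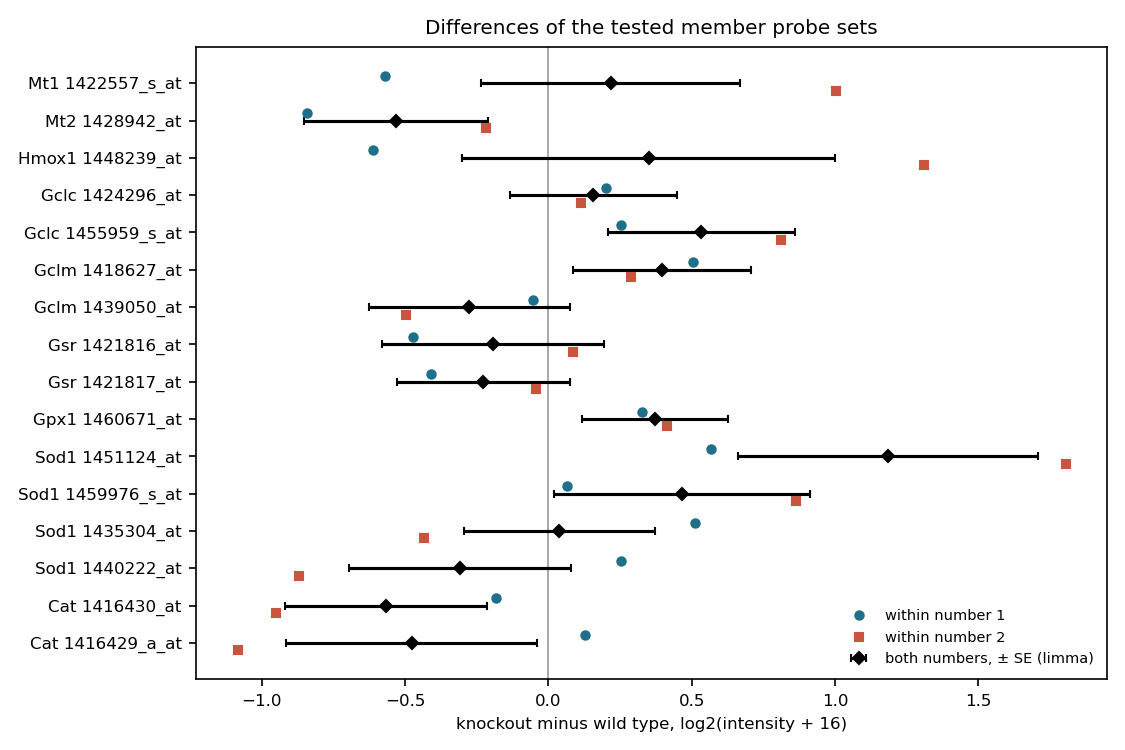
Difference between knockout and wild type, log2(intensity + 16), for the 16 tested member probe sets; diamonds give limma's estimate with its SE, circles the difference within number 1 and squares that within number 2. The Sod1 probe set 1451124_at lies farthest right at 1.19, and 6 probe sets have their circle and square on opposite sides of 0.

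Sod1, the copper and zinc superoxide dismutase of the cytosol, had the largest difference of these genes, and its probe sets disagreed. Probe set 1451124_at measured 473 and 758 in wild type and 708 and 2690.2 in knockout. After normalization, knockout array 2 stood far above the other 3, and knockout array 1 lay inside the wild-type range. The deposited values were 721 and 583 in wild type and 957 and 1148 in knockout. Knockout array 2 was the dimmest array as deposited, so its normalized value was scaled up most. The means were 616 ± 202 and 1699 ± 1402 (SD, n = 2 each) and the difference was 1.19 (SE 0.52, adjusted p = 1 by limma), with 0.57 within number 1 and 1.81 within number 2. With knockout array 2 left out it was 0.23, and with wild-type array 1 left out 0.86. Without knockout array 1 it was 2.15 with an adjusted p of 1.77e-06 by limma, in a fit that compares a lone knockout array and calls 663 probe sets in all.

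Probe set 1459976_s_at of Sod1 measured 589.6 and 954 in wild type and 618 and 1751 in knockout, a difference of 0.47 (SE 0.45), which was -0.27 without knockout array 2. Without knockout array 1 it was 1.23 with an adjusted p of 0.0276 by limma. Probe set 1435304_at measured 75.3 and 111 in wild type and 114 and 78.1 in knockout, a difference of 0.04 (SE 0.33). Probe set 1440222_at measured 12.5 and 39.7 in wild type and 18.02 and 14.4 in knockout, a difference of -0.31 (SE 0.39). The first pair was highest on knockout array 2 and the second pair was lower there than on wild-type array 2. Probe set 1447761_x_at, with values from 0.838 to 4.79, was under the filter. The mean over all Sod1 probe sets differed by 0.27 (SE 0.33).

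Other genes of the superoxide and peroxide route had list medians near 0. The list of dismutases and catalase had 4 of 5 genes tested, with a median of -0.01, 1 higher and 1 lower within both numbers, and 0 passing (limma; 1 at an unadjusted p under 0.05, which is Sod1 itself). Sod2, the dismutase of mitochondria, had 0.10 (SE 0.31) by its brightest probe set, and 0.17 and -0.27 by other tested ones. Of peroxiredoxins, thioredoxins and repair enzymes, 18 of 21 were tested and 0 passed (limma; 0 at an unadjusted p under 0.05), with 5 higher and 4 lower within both numbers and a median of 0.04. Sesn3, a sestrin, measured 445 and 1388 in wild type and 766 and 2297 in knockout, a difference of 0.74 (SE 0.57) with a wide gap between the numbers, and 0.26 with its other probe set. Sesn1, another sestrin, had -0.34 (SE 0.30), without overlap. A dimmer probe set of Prdx4, outside the counts by brightest probe set, had -0.71 without overlap (unadjusted p = 0.0387 by limma). The brightest of Prdx4 had -0.06. Prdx2, the peroxiredoxin abundant in red cells, measured 2286 and 2179 in wild type and 2263 and 2628 in knockout, a difference of 0.13 (SE 0.20), and 0.40 with a dimmer probe set.

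Nrf2, the factor behind many of these genes, was higher on both knockout arrays by the first of its probe sets. Nfe2l2 measured 51.3 and 103 in wild type and 110.2 and 134 in knockout, a difference of 0.62 (SE 0.36, adjusted p = 1 by limma) without overlap, while its dimmer probe set had 0.05. Keap1, which targets Nrf2 for degradation, measured 86.8 and 65.8 in wild type and 99.8 and 98.5 in knockout, a difference of 0.33 (SE 0.31), and -0.03 with its dimmer probe set. Over Nrf2, its partners and its textbook targets, 30 of 36 genes were tested and 0 passed (limma; 0 at an unadjusted p under 0.05), with 8 higher and 6 lower within both numbers and a median of 0.01. Nqo2, a quinone reductase, had -0.40 (SE 0.31), without overlap, and -0.33 and -0.04 with its other probe sets. Apart from Nfe2l2 itself, the list lay on both sides of 0.

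NADPH, which Gsr spends, is supplied by another list of enzymes, of which 14 of 17 were tested and 0 passed (limma; 0 at an unadjusted p under 0.05). Within both numbers 2 were higher and 5 lower, and the median was -0.09. Nadk2, the mitochondrial kinase that makes NADP, measured 224 and 173 in wild type and 155 and 108 in knockout, a difference of -0.55 (SE 0.32). The mitochondrial malic enzyme Me3 had -0.60 (SE 0.39), which rested on knockout array 2 at 6.28. Dimmer probe sets of Nnt and Me2, outside the counts by brightest probe set, went opposite ways without overlap. That of Nnt had -0.87 (unadjusted p = 0.0329 by limma) and that of Me2 had 0.85 (unadjusted p = 0.0335 by limma). The brightest of Nnt had -0.22 and the brightest of Me2 had 0.14, while another Me2 probe set had -0.64. Of heat shock factors and their textbook targets, 10 of 14 were tested and 0 passed, with 3 at an unadjusted p under 0.05 (limma), beside 2.33% of all tested probe sets. Within both numbers 2 were higher and 6 lower, and the median was -0.14. The 3 were Hsf4 itself, higher by 1.36 (SE 0.60), and 2 lower genes. The small heat shock protein Hspb1 had -1.12 (SE 0.43), made of -2.02 within number 1 and -0.21 within number 2. The cochaperone Dnajb1 had -0.81 (SE 0.33), and both were without overlap. The other probe set of Dnajb1 had -0.51 with overlapping groups, made of -1.02 within number 1 and 0.01 within number 2. That of Hspb1 had -1.26 without overlap. Hsf1 had no probe set named for it in the annotation used here and was not analysed here.

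**Figure D3:**
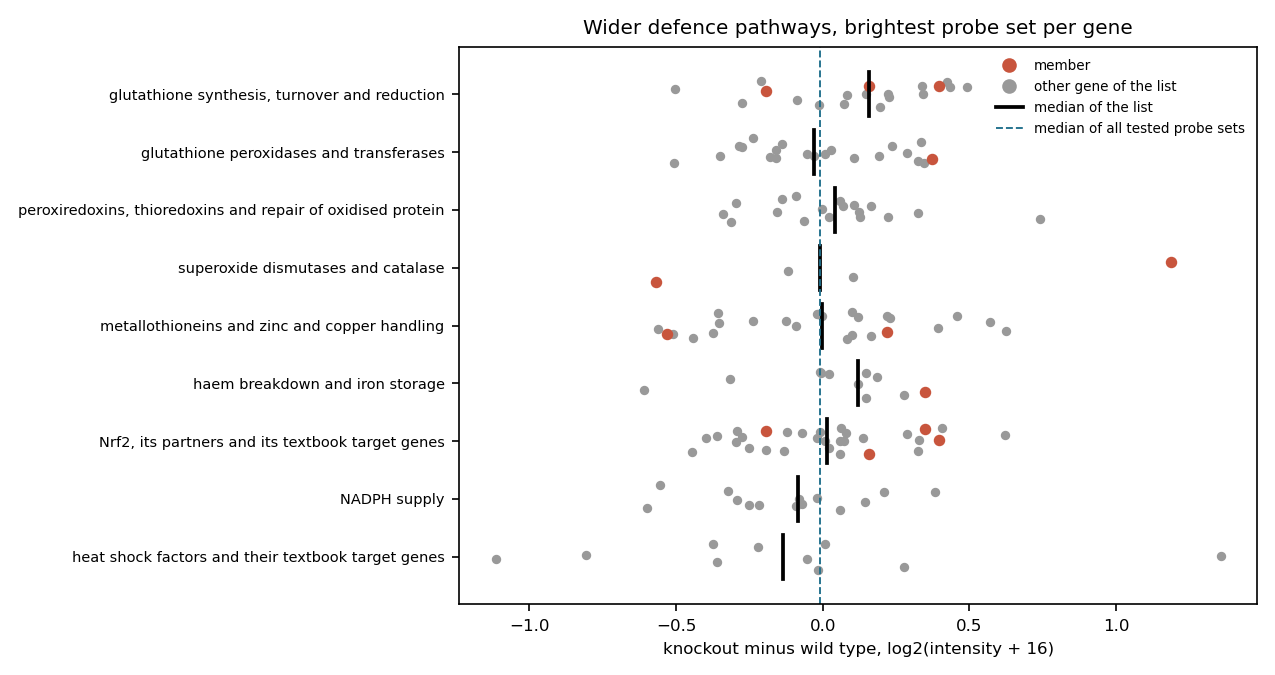
Difference between knockout and wild type, log2(intensity + 16), for each tested gene of 9 pathway lists by its brightest probe set; larger dots are members, black bars the list medians and the dashed line the median of all tested probe sets, -0.01. The list medians lie between -0.14 and 0.16, and Sod1 at 1.19 and Hsf4 at 1.36 stand farthest right.

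The way the arrays were brought to one scale decided the sign of 8 of the 16 tested probe sets. Both Cat, both Gsr, Mt2, the lower Gclm and 2 Sod1 probe sets (1451124_at and 1440222_at) kept their sign under quantile normalization, trimmed mean scaling, median centring and the values as deposited. The median difference of all tested probe sets was -0.42 with the values as deposited and -0.25 with median centring, against -0.01 with quantile normalization. Taken relative to that median, 15 of the 16 kept 1 direction under the 4 scalings, and Sod1 1440222_at turned. Values as deposited and median centring become identical once that median is taken off, so agreement between them was fixed in advance. Among the 15, Sod1 1435304_at lay only between 0.009 and 0.047. Relative to it, Mt2 lay between -0.55 and -0.52, Cat 1416430_at between -0.68 and -0.56, Gpx1 between 0.38 and 0.58, Gclc 1424296_at between 0.01 and 0.17, and Sod1 1451124_at between 1.10 and 1.29.

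**Figure D4:**
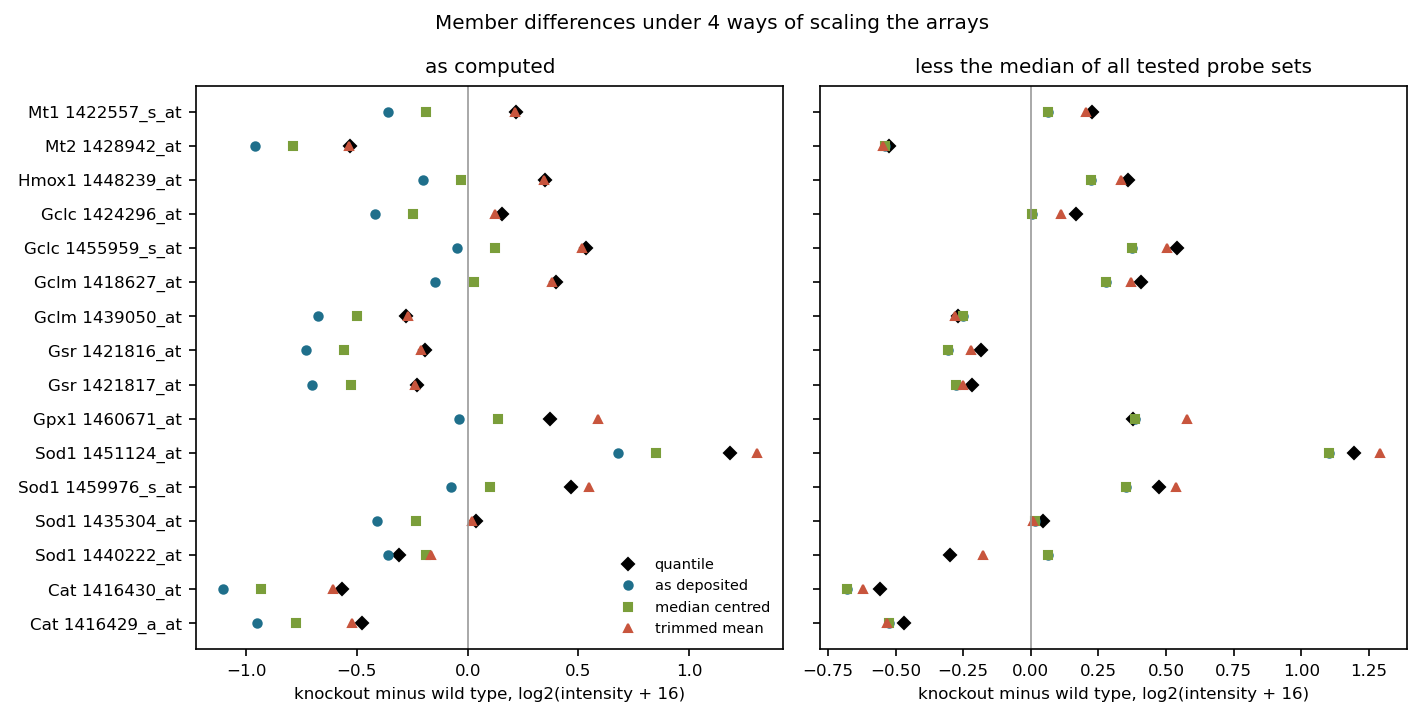
Difference between knockout and wild type, log2(intensity + 16), of the 16 tested member probe sets under 4 ways of scaling the arrays, as computed (left) and less the median of all tested probe sets (right). As deposited, 15 lie below 0; on the right, where values as deposited and median centring coincide, Mt2, Gsr and Cat stay below 0 and Sod1 1451124_at stays at 1.10 or more.

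Markers of other cell types moved with some of these values, and their part in them was not tested. In RNA of whole lenses, the number of cells of a type, whatever tissue they came from, and the RNA per cell cannot be told apart. Erythroid markers were highest where Sod1 1451124_at was highest. Of 11 listed, 7 had a probe set and 4 were tested, 3 of them higher within both numbers. Their summed level was 93.9 and 161 in wild type and 139 and 533 in knockout, the last on knockout array 2, and none of the 7 was at 0, though the lowest value, of Tspo2, was 0.952. Alas2, the haem synthesis enzyme of red cells, measured 35.0 and 87.2 in wild type and 63.6 and 215 in knockout.

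Striated muscle markers were lower in knockout, as were Mt2, Cat 1416430_at and Gsr 1421817_at, the 3 tested member probe sets lower without overlap. The muscle medians were -2.59 within number 1 and -2.39 within number 2. In the same order Mt2 had -0.84 and -0.22, Cat 1416430_at -0.18 and -0.95, and Gsr 1421817_at -0.41 and -0.04. All 11 of the 11 tested muscle markers were lower within both numbers, and 2 passed the threshold (limma). Their summed level was 2939 and 1446 in wild type and 148 and 146 in knockout, with Tnnt3 lowest at 0.756 and none at 0. Fibroblast and pericyte markers summed to 1984 and 2427 in wild type and to 1502 and 1071 in knockout. Of 10, 7 were lower within both numbers and none was at 0. Neural retina markers summed to 2499 and 2417 in wild type and to 2471 and 1250.2 in knockout, lowest on knockout array 2 as Cat was, with 6 of 10 lower within both numbers and none at 0. Whether these cells carry the differences of Mt2, Gsr and Cat was not tested.

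Macrophage and endothelial markers were set beside Mt1 and Hmox1, which changed sign between numbers. Endothelial markers had medians of -0.26 within number 1 and 0.71 within number 2. They summed to 952 and 675 in wild type and 756 and 1049.8 in knockout. Of 10, 1 was higher and 1 lower within both numbers, and 8 changed sign between the numbers. Macrophage markers had medians of -0.10 and 0.20, and summed to 989 and 953 in wild type and 916 and 1159.8 in knockout. Of 12, 2 were higher and 2 lower within both numbers, and 8 changed sign. None of either list was at 0. Lens epithelium markers summed to 4818 and 4605 in wild type and 4083 and 4249.8 in knockout, with 5 of 9 lower within both numbers, and pigment cell markers to 885 and 1433 in wild type and 1245 and 1488 in knockout, with 4 of 7 higher.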

How the data were processed

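The authors deposited linear intensities, 1 for each probe set of each array; the summarising software was not given in the sources used here. Lenses were stored in RNAlater and RNA was cleaned on columns with DNase, and biotin-labelled target was made by oligo-T7 reverse transcription, per the labels' protocols. Here the 45101 values per array went through quantile normalization (limma 3.58.1, R 4.3.3), 16 was added and log2 taken, and the 64 control probe sets were then left out. Of the other 45037, those with a mean log2 of at least the median, 4.86 (an intensity of about 13.0), were tested with limma's moderated test with a variance trend, without a block, and Benjamini-Hochberg adjustment over all 22519. The procedure was also run on simulated data with independent errors. In the real arrays, deviations from the group means correlated at 0.43 between arrays of one number. The simulated run therefore does not check the procedure for these arrays. The number of arrays limits the precision.

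The members and lists were chosen with earlier results of these data known. In a list, the brightest probe set on average stands for a gene, whereas shares of all count every tested probe set. List symbols were matched to current RefSeq symbols through gene identifiers. Named genes were all member probe sets, the 2 with the lowest p of each list, Mtf1, Slc30a1, Mt3, Nfe2l2, Keap1, Bach1, Hsf1 and Hsf4, and the 3 genes most like Mt1 and Mt2. Gss, Gpx4, Gstm5, Sod2, Prdx2, Prdx4, Me2, Nnt, Xist and the marker genes were chosen for naming once their values had been seen. The numbers 1 and 2 in the labels are not said to mark a shared litter or day. Promoter sequences are RefSeq's, on GRCm38.p6.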

Additional observations from a re-analysis of the deposited data

Results flagged for a closer look

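The 3' and middle control probe sets of 18S ribosomal RNA, which took no part in the tests, stood out because they were far brighter on knockout array 2 than on either wild-type array. The 3' probe set measured 3228 there, against 349 and 12.8 in wild type (numbers 2 and 1), and the middle one measured 3636, against 432 and 14.3. The 5' probe set was bright on both arrays numbered 2, at 7309 in knockout and 6898 in wild type, and measured 14.3 and 1.52 on arrays 1. On the same array Sod1 1451124_at was highest and both Cat probe sets were lowest; whether these go together was not tested.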

How the results depend on the processing

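The member count of 0 in limma also held with values as deposited, median centring, trimmed mean scaling, no filter, the stricter filter, offsets of 1 and 64, no variance trend and both ways of combining probe sets. With the array number as a block it was 1 (Sod1 1451124_at, adjusted p = 4.47e-09, where 1 residual degree of freedom leaves the variance to the trend; deviations from the group means correlated at 0.43 between arrays of one number), and 0 to 2 when each array was left out. Over all probe sets, 4 passed, against 0 with values as deposited, no filter or the mean of a gene's probe sets, 16 with median centring, 317 with the block, and 5 to 663 when each array was left out, 95 without knockout array 2 and 663 without knockout array 1. Member probe sets without overlap numbered 8 to 13 when each array was left out (added after seeing the data), where fewer arrays overlap less and 59.9% to 73.3% of all do so too. Signs turned with values as deposited for Mt1 (-0.36), Hmox1 (-0.20), Gclc (-0.42 and -0.049), Gclm 1418627_at (-0.15), Gpx1 (-0.038) and Sod1 1459976_s_at and 1435304_at (-0.074 and -0.41), and with median centring for Mt1 (-0.19), Hmox1 (-0.030), Gclc 1424296_at (-0.25) and Sod1 1435304_at (-0.24), where the median of all tested probe sets was itself -0.42 and -0.25. Leaving out each array gave ranges that cross 0 of -0.54 to 0.95 for Mt1, -0.87 to 1.52 for Hmox1, -0.64 to 0.10 for Gclm 1439050_at, -0.72 to 0.30 for Gsr 1421816_at, -0.27 to 1.23 for Sod1 1459976_s_at, -0.20 to 0.28 for Sod1 1435304_at, -0.70 to 0.19 for Sod1 1440222_at and -1.16 to 0.22 for Cat 1416429_a_at. The cause of these turns was not tested. The count of 1 member at an unadjusted p under 0.05 (limma) held with an offset of 64 and the brightest probe set per gene. That count was 0 with values as deposited, median centring, trimmed mean scaling, no filter and the stricter filter. It was also 0 with an offset of 1, no variance trend and the mean of a gene's probe sets, and 6 with the block. The member median ran from -0.38 with values as deposited to 0.22 with the brightest probe set per gene. Values of Mt1 1451612_at and Sod1 1447761_x_at are too dim to carry a direction.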
